A study of Mus musculus with 8 samples.

Results

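The genes of rod phototransduction and of the rod outer segment were read here in RNA pulled down with tagged ribosomes of Müller cells, which are the radial glia of the retina. The genes were 36 symbols chosen by name, and all 36 were among the 12339 genes of the deposited table. The 8 libraries came from mouse retina at postnatal day 14 of oxygen-induced retinopathy (OIR), in which pups are kept in high oxygen and then returned to room air. Of these, 4 were wild type (WT) and 4 carried a Müller cell-specific conditional knockout (cKO) of Nrf2, a transcription factor of the antioxidant response, and both groups had the same OIR treatment and time. In RiboTag profiling, Cre recombinase switches on a tagged ribosomal protein, and RNA bound to tagged ribosomes is recovered with an antibody. The labels name neither the Cre driver nor the deleted exon, and they give no sex, litter or number of animals per library, so the p-values measure only the spread between these libraries. The libraries are called WT 1, 3, 4 and 5 and cKO 1, 3, 4 and 5, as numbered in the labels. Levels are in FPKM, fragments scaled to transcript length and to the sequenced total, which allows genes to be compared per length. The number of fragments per library is unknown, so no counting error is given. Nfe2l2, the gene of Nrf2, had a level of 19.2 ± 2.66 FPKM in the WT libraries against 13.6 ± 2.66 in the cKO libraries (SD, n = 4), a log2 difference of −0.50 (adjusted p = 0.0219 in limma with the replicate block described below and 0.453 without it), with all cKO values below all WT values.

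Rods detect dim light in a stack of membrane discs, the outer segment. Light-activated visual pigment switches on the G protein transducin, which frees the phosphodiesterase Pde6 to break down cGMP, and the fall in cGMP closes cation channels of the outer segment membrane. Calcium falls with channel closure, and calcium sensors then restore cGMP and shut the pigment off. The transcription factors Crx, Nrl and Nr2e3 set up this program in the developing rod. Rods are the most numerous cells of the mouse retina, and Müller cell processes surround their cell bodies. Gnb1 is used by many neurons, and genes such as Crx, Prph2 and Abca4 are also used by cones, so not every gene of the set is a marker of rods alone.

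Sequence around the RefSeq starts of these genes carried one motif often. Promoters were taken from RefSeq on GRCm38.p6 as 300 bases, 250 before and 50 after the annotated start, and 29 of the 36 genes had at least 1 entry (33 promoters in all). TAATCC, a homeodomain site of the kind that CRX and OTX proteins bind, was searched on both strands and occurred in 14 of the 33 promoters (42.4%), from 14 genes. It occurred in 7.1% of all 32851 promoters of that length. TGCTGA, the core of sites of the MAF and NRL kind, occurred in 7 of the 33 (21.2%) and in 19.5% of all promoters. The letters of these motifs do not overlap in the promoters printed here. A match is a description of the letters and not of binding. The promoters of the 5 rod genes that were lower in cKO when replicate numbers were taken into account, as described below for the comparison, are given here to show where the motif lies. They are written 5′ to 3′ on the strand of the gene, with either motif in capitals on whichever strand it was found (GGATTA is TAATCC, and TCAGCA is TGCTGA, read on the other strand). Their positions are chr14:52110653-52110952 (plus strand) for Rpgrip1, chr3:122044210-122044509 (plus) for Abca4, chr1:59161587-59161886 (minus) for the Mpp4 entry of 2 that held TAATCC, chr3:30746043-30746342 (plus) for Samd7 and chr8:13404831-13405130 (plus) for Grk1.
Rpgrip1: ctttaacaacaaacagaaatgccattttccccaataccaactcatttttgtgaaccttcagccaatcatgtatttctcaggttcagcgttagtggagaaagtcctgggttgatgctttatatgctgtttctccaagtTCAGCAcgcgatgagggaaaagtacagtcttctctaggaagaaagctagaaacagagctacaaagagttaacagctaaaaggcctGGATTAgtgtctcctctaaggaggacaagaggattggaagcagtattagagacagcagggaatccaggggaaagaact
Abca4: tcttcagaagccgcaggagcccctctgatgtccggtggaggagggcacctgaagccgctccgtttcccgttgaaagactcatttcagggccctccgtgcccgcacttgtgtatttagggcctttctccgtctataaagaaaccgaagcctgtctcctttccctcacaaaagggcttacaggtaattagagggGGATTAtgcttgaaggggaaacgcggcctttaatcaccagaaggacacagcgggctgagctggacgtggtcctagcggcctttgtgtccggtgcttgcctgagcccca
Mpp4: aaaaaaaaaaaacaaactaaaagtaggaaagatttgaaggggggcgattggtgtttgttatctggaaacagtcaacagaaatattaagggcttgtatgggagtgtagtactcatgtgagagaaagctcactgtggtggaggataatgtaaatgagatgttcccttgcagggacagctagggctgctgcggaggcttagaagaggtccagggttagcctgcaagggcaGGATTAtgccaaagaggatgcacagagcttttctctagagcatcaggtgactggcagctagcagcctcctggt
Samd7: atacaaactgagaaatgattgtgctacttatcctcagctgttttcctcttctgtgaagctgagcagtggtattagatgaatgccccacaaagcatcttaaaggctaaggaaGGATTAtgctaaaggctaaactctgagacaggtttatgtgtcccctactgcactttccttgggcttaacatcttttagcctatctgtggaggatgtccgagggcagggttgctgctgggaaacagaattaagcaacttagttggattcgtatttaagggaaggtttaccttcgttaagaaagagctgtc
Grk1: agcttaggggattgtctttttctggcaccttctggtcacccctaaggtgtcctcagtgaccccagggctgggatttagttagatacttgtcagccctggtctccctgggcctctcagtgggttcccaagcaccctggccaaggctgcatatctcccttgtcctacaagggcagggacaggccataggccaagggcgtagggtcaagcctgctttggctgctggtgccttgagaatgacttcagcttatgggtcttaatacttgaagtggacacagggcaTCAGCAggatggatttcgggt
As printed, the leftmost base of TAATCC or its reverse complement lay 28 bases before the RefSeq start in Rpgrip1 and 58 in Abca4. The distance was 23 in this Mpp4 promoter and 139 in Samd7. GENCODE starts Rpgrip1 further upstream, at 52110704, so its TAATCC lies inside the GENCODE gene. All of the printed Mpp4 promoter lies inside the GENCODE gene (59120935 to 59163389). The other Mpp4 entry (59163340-59163639) held TGCTGA and no TAATCC. Grk1 held only TGCTGA, downstream of its start. Crx, itself one of the 36 genes, held TAATCC at 94 and at 21 bases before its start. Gngt1, which was higher in cKO when replicate numbers were taken into account, also held TAATCC, 44 bases before its RefSeq start. So did genes that were called in neither direction, such as Sag, Cnga1 and Gucy2e. A relation between the motif and the differences was not tested.

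Rod RNA was abundant in every library of this Müller cell pull-down. The mean over the 8 libraries was at least 100 FPKM for 24 of the 36 genes, a level that 6.2% of all genes reached, and at least 200 FPKM for 16 genes, against 2.3% of all genes. The highest were Pdc (834 FPKM, rank 26 of 12339), Gnb1 (814, rank 27), Sag (720.2, rank 31) and Unc119 (579.7, rank 47). Pdc encodes phosducin, which binds the beta and gamma subunits of transducin. Gnb1 encodes that beta subunit, Sag the rod arrestin that quenches active pigment, and Unc119 a chaperone that carries lipid-modified transducin alpha. At the other end were the guanylate cyclase Gucy2f (6.57 FPKM) and the calcium sensor Guca1a (6.92), followed by the actin-bundling fascin Fscn2 (13.5). Whether the rod RNA reached the pull-down from untagged rods or from tagged ribosomes was not tested.

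**Figure D1:**
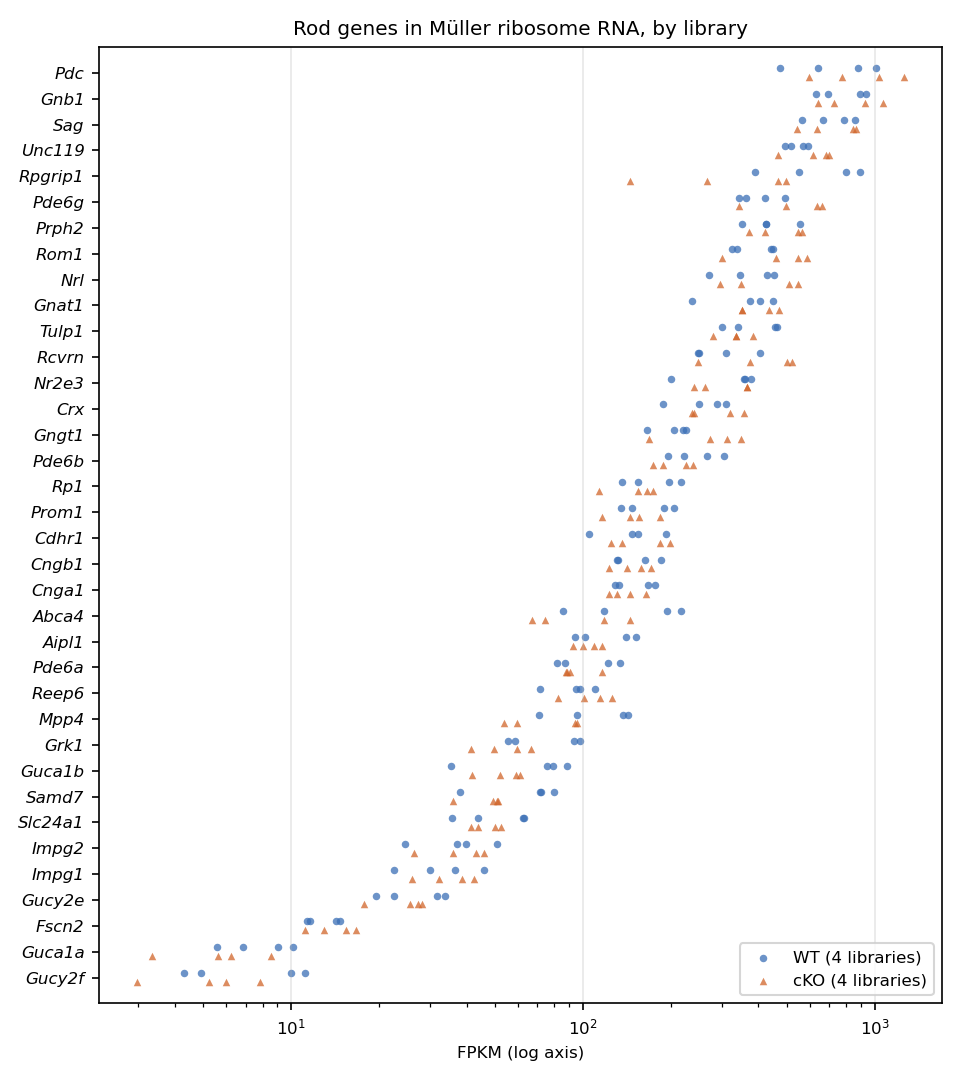
FPKM of each of the 36 rod genes in the 4 WT libraries (circles) and the 4 cKO libraries (triangles), on a log axis and ordered by mean level. Levels run from Gucy2f at a mean of 6.57 FPKM to Pdc at 834 FPKM, and the circles and triangles of each gene overlap.

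Ratios between related rod genes were steady for some pairs and varied for others. Cnga1 and Cngb1, the subunits of the rod cGMP-gated channel, were at 151 ± 24.1 and 153 ± 26.5 FPKM in WT and 141 ± 18.5 and 149 ± 21.1 in cKO (SD, n = 4), and the Cnga1 to Cngb1 ratio lay between 0.92 and 1.02 in all 8 libraries. Impg1 and Impg2, proteoglycans of the matrix around photoreceptors, were in a ratio of 0.80 to 0.99. Nrl, the leucine zipper factor that commits cells to the rod fate, stood at 1.23 to 1.60 times the level of the homeodomain factor Crx. The tetraspanins of the disc rim, Prph2 and Rom1, were in a ratio of 0.91 to 1.31. The catalytic subunits Pde6b and Pde6a had unequal RNA levels, with a ratio of 1.99 to 2.71. The ratio of the guanylate cyclases, Gucy2e over Gucy2f, ran from 2.82 to 5.99, and that of their activators, Guca1b over Guca1a, from 6.33 to 12.4. Pde6g, the small inhibitory subunit, was at 1.29 to 1.90 times Pde6b in WT and at 1.82 to 2.85 times in cKO, ranges that overlap. For Gngt1, transducin gamma, over Gnat1, transducin alpha, the ratio ran from 0.41 in WT 3 to 0.99 in cKO 5. Transducin beta over alpha, Gnb1 over Gnat1, had the largest coefficient of variation of the ratios computed (34.7%, from 1.68 to 3.77), and Cnga1 over Cngb1 the smallest (4.1%). These ratios were described and not tested.

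The amount of rod RNA differed more between libraries than between groups. The FPKM of the 36 genes summed to 10722, 9032, 7165 and 8829 in WT 1, 3, 4 and 5 and to 10661, 7404, 8075 and 10419 in cKO 1, 3, 4 and 5. The groups overlapped, with means of 8937 ± 1455 in WT and 9140 ± 1643 in cKO (SD, n = 4), or 2.11% and 2.10% of the summed FPKM of a library. The sum changed by −0.6%, −18%, 12.7% and 18% from WT to cKO in pairs 1, 3, 4 and 5, so its direction was not shared by the pairs. WT 4 was the poorest in rod RNA: it held the lowest WT value of 23 of the 36 genes, and WT 1 held the highest of 27. Within cKO, the lowest value was in cKO 4 for 16 genes and in cKO 3 for 14. In pulled-down RNA such as this, fewer rods, less RNA per rod and less rod RNA carried into the pull-down cannot be told apart.

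The library with the least rod RNA had the most Müller RNA. The 16 Müller cell markers (Glul and Apoe the highest) summed to 10702 to 18217 FPKM in WT and 11416 to 15981 in cKO, with the highest sum in WT 4 and the next in cKO 4. Within cKO, however, cKO 3 had the lowest rod sum (7404 FPKM) and also the lowest Müller sum (11416 FPKM). The rod sum was 1.002, 0.71, 0.39 and 0.66 times the Müller sum in WT 1, 3, 4 and 5 and 0.91, 0.65, 0.51 and 0.89 times in cKO 1, 3, 4 and 5. The groups overlapped in this ratio too (0.69 ± 0.25 and 0.74 ± 0.20). The part of this varying mixture in the differences below was not tested.

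**Figure D2:**
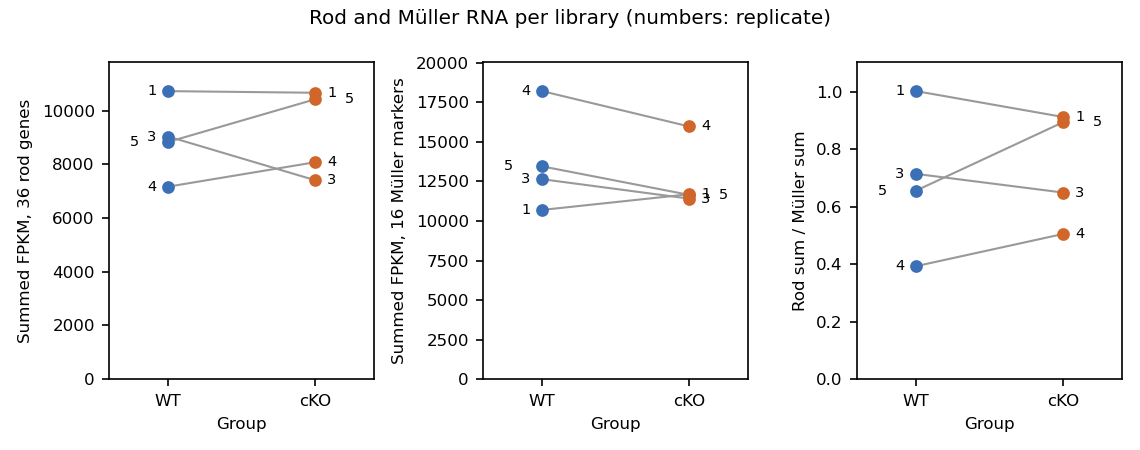
Summed FPKM of the 36 rod genes, summed FPKM of the 16 Müller cell markers, and their ratio, for each library; lines join libraries of the same replicate number. The ratio runs from 0.39 in WT 4 to 1.002 in WT 1, and WT and cKO overlap in every panel.

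The comparison of cKO with WT asked whether rod RNA in the pull-down differed when Nrf2 was deleted in Müller cells. As a group it differed little: 16 of the 36 genes were above 0 and 20 below, and the median log2 difference was −0.04, against 0.00 over all genes. In limma without the replicate number, 0 of the 36 genes passed an adjusted p of 0.05, as for all genes (0% called), and the smallest adjusted p was 0.454, for Rpgrip1. At an unadjusted p under 0.05 there was 1 of 36 (2.78%), against 10.6% of all genes. Equal replicate numbers marked libraries that deviated together, so limma was also fitted with the number as a block. With the block 6 of the 36 passed. Gngt1 rose, which is 2.78% of the set and close to the 2.99% called higher among all genes. Rpgrip1, Abca4, Mpp4, Grk1 and Samd7 fell, which is 13.9%, against 7.59% called lower among all genes, and 30 did not pass. At an unadjusted p under 0.05 in limma with the block, 5 were higher and 11 lower, against 12.4% and 16% of all genes. No gene of the 36 had all cKO values on one side of all WT values, where 4.34% of all genes did. Within pairs, 9 of 36 genes (25%) went the same way in all 4 pairs, 1 higher and 8 lower, against 16.7% and 19.5% of all genes.

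Rpgrip1 had the largest difference. It encodes a scaffold that anchors the GTPase regulator Rpgr at the connecting cilium, through which proteins reach the outer segment (ENSMUSG00000057132; GRCm38 chromosome 14, 52110704 to 52163546, plus strand). Its level was 799, 889, 552 and 391 FPKM in WT 1, 3, 4 and 5 and 467, 498, 267 and 145 FPKM in cKO 1, 3, 4 and 5. Each cKO value lay below the WT value of its number, while WT 5 lay below cKO 1 and cKO 3. The log2 difference was −1.02 (SE 0.11 with the block), with −0.77, −0.83, −1.04 and −1.42 in pairs 1, 3, 4 and 5, and had an adjusted p of 0.00275 in limma with the block and 0.454 without it. Exons of Rpgrip1 overlap exons of Supt16, a histone chaperone gene on the opposite strand, which was at 146 ± 29.5 FPKM in WT, against 88.8 ± 24.4 in cKO (−0.74, adjusted p = 0.00197 in limma with the block). The strand setting of the counting is not given in the sources used here, so reads of the overlap may have been counted for either gene.

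Abca4, a lipid flippase of the disc rim that clears retinoid by-products, was next (ENSMUSG00000028125; GRCm38 chromosome 3, 122044443 to 122180123, plus strand). It was at 195, 217, 118 and 85.8 FPKM in WT 1, 3, 4 and 5 and at 119, 146, 74.4 and 66.9 FPKM in cKO 1, 3, 4 and 5. Again every pair was lower in cKO although the groups overlapped. The log2 difference was −0.58 (SE 0.07), with an adjusted p of 0.00440 in limma with the block and 0.511 without it. Mpp4, a membrane-associated guanylate kinase that scaffolds proteins in photoreceptors (ENSMUSG00000079550; GRCm38 chromosome 1, 59120935 to 59163389, minus strand), was at 143, 138, 96.0 and 70.9 FPKM in WT and at 94.1, 95.8, 59.6 and 53.7 in cKO, in the same order. The groups overlapped through WT 5, which lay below cKO 1 and cKO 3. Its difference was −0.55 (SE 0.07, adjusted p = 0.00377 in limma with the block, 0.476 without it). Rpgrip1, Abca4 and Mpp4 passed in limma with the block whichever pair was left out. The deposited table gives Rpgrip1, Abca4 and Mpp4, and also Rcvrn and Pdc, a wider span than GENCODE does, and the part of this in their values was not tested.

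The calls of Grk1, Samd7 and Gngt1 did not hold whichever pair was left out. Grk1 encodes the kinase that phosphorylates active visual pigment so that arrestin can bind (ENSMUSG00000031450; GRCm38 chromosome 8, 13405081 to 13421951, plus strand). It was at 93.6, 97.8, 58.6 and 55.3 FPKM in WT and at 59.6, 66.4, 41.3 and 49.7 in cKO (−0.46, SE 0.09, adjusted p = 0.0172 in limma with the block). Without pair 1, 3 or 4 the adjusted p was 0.0746, 0.0637 and 0.0685. Samd7 encodes a sterile alpha motif protein that represses genes foreign to rods (ENSMUSG00000051860; GRCm38 chromosome 3, 30746293 to 30767174, plus strand). It was at 71.8, 71.4, 38.1 and 79.6 FPKM in WT and at 51.4, 50.7, 35.9 and 49.1 in cKO (−0.44, SE 0.10, adjusted p = 0.0298 in limma with the block). WT 4 alone reached down to the cKO values. Without pair 1, 3 or 5 the adjusted p of Samd7 was 0.110, 0.0930 and 0.0837. Gngt1 (ENSMUSG00000029663; GRCm38 chromosome 6, 3993792 to 3997436, plus strand) was at 220.2, 166, 205 and 226 FPKM in WT and at 313, 169, 272 and 348 in cKO (0.39, SE 0.10, adjusted p = 0.0432 in limma with the block). In pair 3 the Gngt1 values were nearly equal. Without pair 1, 4 or 5 the adjusted p of Gngt1 was 0.147, 0.124 and 0.123.

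**Figure D3:**
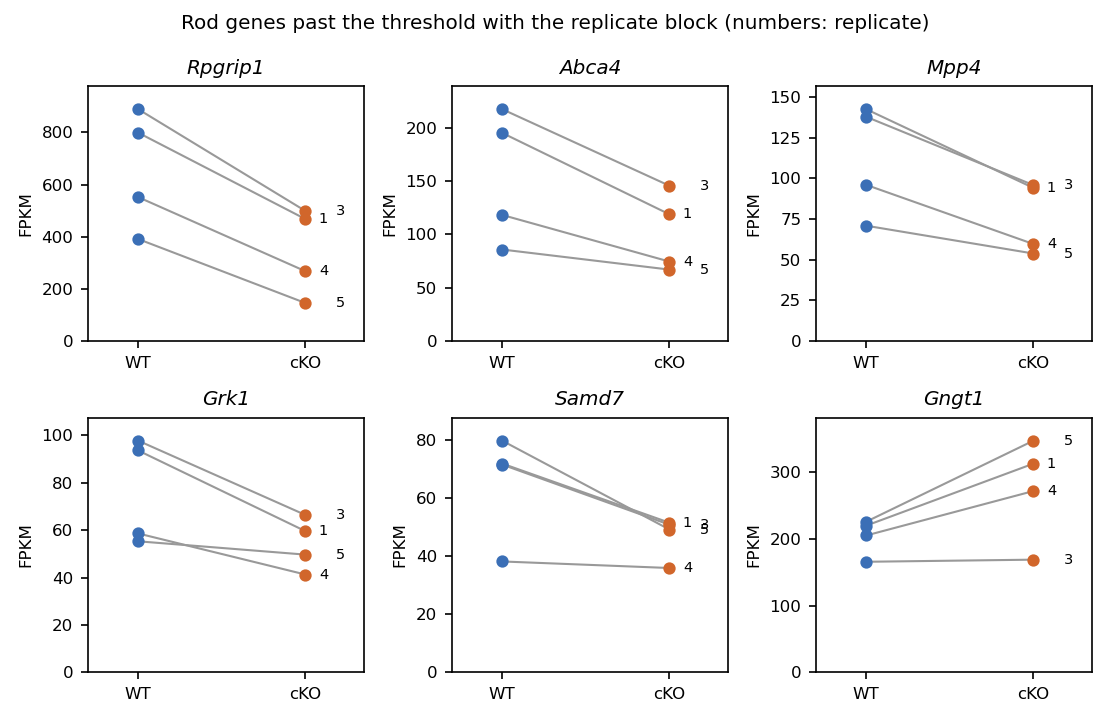
FPKM of the 6 rod genes past the threshold with the replicate block, with lines joining WT and cKO libraries of the same number. Rpgrip1, Abca4, Mpp4, Grk1 and Samd7 fall in each of the 4 pairs and Gngt1 rises in each, while the WT and cKO values of each gene overlap.

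Along the cascade, Gngt1 rose and Grk1 fell. In the transducin and arrestin arm (7 genes), 1 rose, 1 fell and 5 did not pass with the block, with differences from −0.46 to 0.41. Rcvrn, the calcium sensor recoverin that restrains Grk1, was at 406, 250.1, 248 and 309 FPKM in WT and at 523, 248, 374 and 501 in cKO. Pairs 1, 4 and 5 were higher in cKO and pair 3 was level, for a difference of 0.41 (SE 0.11, adjusted p = 0.0584 in limma with the block, 0.531 without it). Rcvrn overlaps Glp2r, a gene on the opposite strand, though not its exons. Sag differed by −0.00 (adjusted p = 0.994 with the block), at 855, 668, 566 and 784 FPKM in WT and 845, 541, 637 and 867 in cKO. Gnat1 measured 366 ± 92.2 FPKM in WT against 401 ± 60.1 in cKO, and Gnb1 787 ± 149 in WT against 842 ± 193 in cKO (0.09, adjusted p = 0.532). Pdc was at 751 ± 240.4 and 916 ± 291 (0.29, adjusted p = 0.159), within the spread between libraries.

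Of the phosphodiesterase, channel and exchanger genes (6), 0 of 6 passed with the block, where 1 higher and 1 lower had an unadjusted p under 0.05 in limma with the block. Pde6g was at 495, 343, 363 and 421 FPKM in WT and at 659, 342, 497 and 637 in cKO, again level in pair 3 and higher in the other pairs (0.36, SE 0.10, adjusted p = 0.0569 with the block). The catalytic subunits it binds had lower means in cKO, and neither passed. Pde6a was at 106 ± 26.1 and 95.7 ± 13.9 FPKM and Pde6b at 247 ± 48.1 and 207 ± 30.2 in WT and cKO. Slc24a1, the exchanger that extrudes calcium from the outer segment, was at 51.3 ± 13.7 and 46.8 ± 5.23. All 4 genes of cGMP synthesis were below 0 and 0 passed with the block, with 3 at an unadjusted p under 0.05 in limma with the block, where 16% of all genes were lower. After the correction for transcript length and GC content described below, Gucy2e was at 0.05 and the other 3 stayed below 0. The guanylate cyclases were at 26.8 ± 6.85 and 24.7 ± 4.70 FPKM (Gucy2e) and 7.61 ± 3.50 and 5.52 ± 2.01 (Gucy2f). Their calcium-sensing activators were at 69.6 ± 23.5 and 53.5 ± 8.73 (Guca1b) and 7.89 ± 2.06 and 5.94 ± 2.13 (Guca1a).

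Of 6 genes of discs and outer segment membrane, Abca4 fell and 5 did not pass. Among those 5 were Prph2 (439 ± 85.2 FPKM in WT and 477 ± 94.9 in cKO) and Rom1 (389 ± 66.4 and 474 ± 127). Prom1 and Cdhr1, which act where new discs form, were at 170.1 ± 33.8 and 151 ± 28.1 FPKM and at 150.4 ± 36.3 and 161 ± 36.1. Of 7 genes of the cilium, axoneme and protein traffic, Rpgrip1 and Mpp4 fell and 5 did not pass. Unc119 was at 543 ± 46.5 FPKM in WT, against 617 ± 106 in cKO (0.17, adjusted p = 0.262 with the block). The axonemal microtubule protein Rp1 was at 177 ± 37.2 and 152 ± 26.9, and Tulp1, which helps carry proteins to the outer segment, at 389.8 ± 82.3 and 334 ± 42.6. Aipl1, the co-chaperone that folds Pde6, was at 122 ± 28.5 and 105 ± 10.5, and Reep6, a membrane-shaping protein of rod vesicles, at 93.6 ± 16.3 and 106 ± 18.8. The 2 matrix proteoglycans were at 38.1 ± 10.8 and 37.8 ± 8.71 FPKM (Impg2) and 33.8 ± 9.92 and 34.8 ± 7.29 (Impg1), with differences of 0.00 and 0.07, and neither passed. Fscn2 ranged from 11.4 to 14.7 FPKM in WT and from 11.2 to 16.8 in cKO.

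Of 4 genes of rod transcription, Samd7 fell and 3 did not pass with the block. The WT and cKO values of Samd7 overlapped too, and its call was lost without pair 1, 3 or 5. Nrl was at 375 ± 82.7 FPKM in WT, against 425 ± 122 in cKO, Crx at 259.7 ± 52.9 and 289 ± 59.6, and Nr2e3, the nuclear receptor that represses cone genes in rods, at 323 ± 82.5 and 309 ± 66.6.

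**Figure D4:**
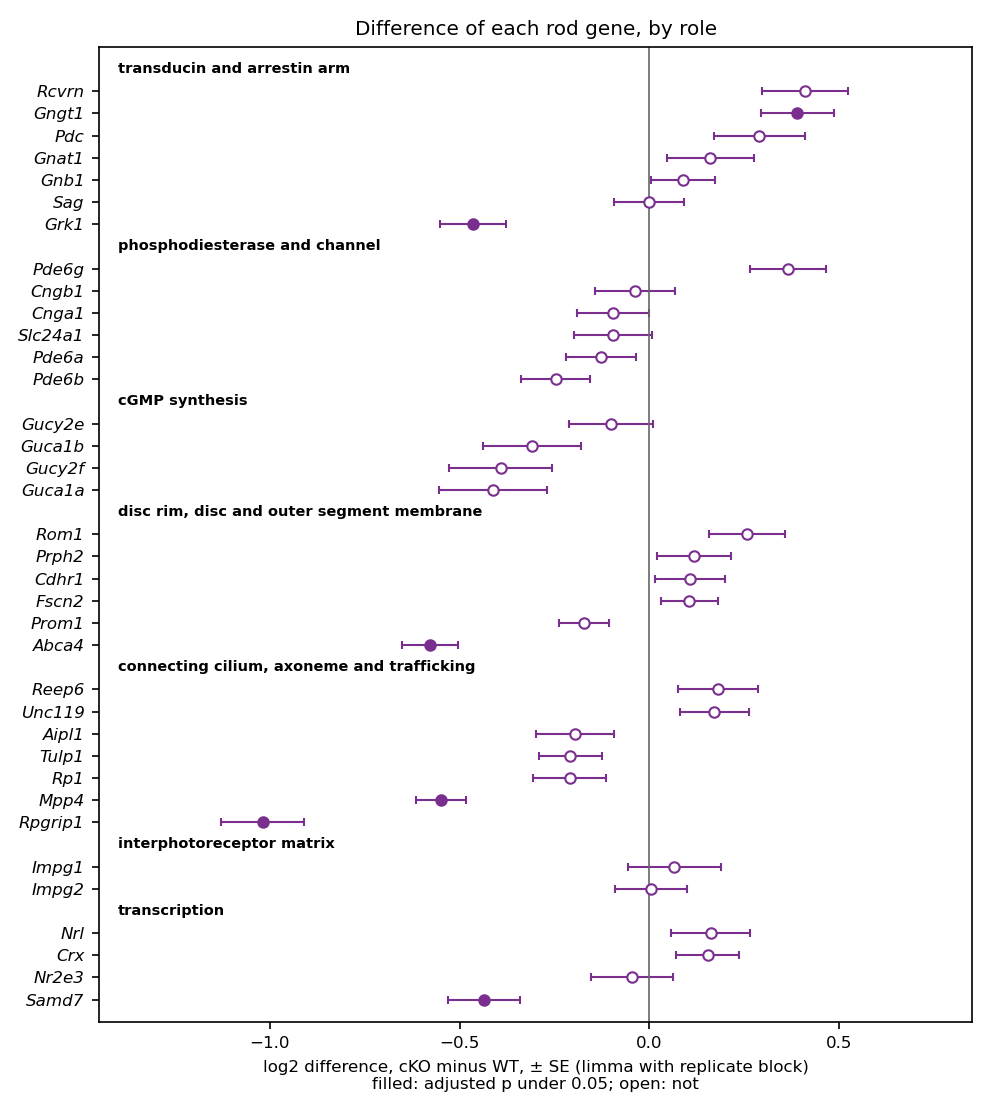
Log2 difference (cKO minus WT) of each rod gene with its SE from limma with the replicate block, grouped by role. Filled points passed an adjusted p of 0.05; they are Gngt1 at 0.39 and Grk1, Abca4, Mpp4, Rpgrip1 and Samd7 from −0.44 to −1.02.

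The rod genes split by the length of their transcripts. Length was that of the longest basic transcript in GENCODE mouse release 21. Of the 5 rod genes with a transcript of up to 1500 nucleotides, 4 were above 0 (Gngt1, Rcvrn, Pde6g and Unc119) and Guca1a was below, with a median difference of 0.37. Of the 9 with more than 5000 nucleotides, among them Grk1, Gucy2f, Abca4, Rp1 and Rpgrip1, 8 were below 0, with a median of −0.21. Between these, the medians were −0.00 for 15 genes above 1500 and up to 3000 nucleotides and 0.07 for 7 genes above 3000 and up to 5000. All genes of the table followed length in the same direction but over a narrower range: 71.7% of 1980 genes of the shortest class and 28.6% of 2647 of the longest class were above 0. Spearman's rho between difference and length was −0.49 across the 36 rod genes and −0.33 across 12327 genes. These correlations are across genes, which are measured in the same libraries and are not independent replicates.

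Single libraries carried this relation too. The rho between transcript length and a rod gene's deviation from its mean over all libraries was 0.74 in WT 1, 0.53 in WT 3, −0.05 in WT 4 and −0.24 in WT 5. It was −0.50, 0.56, −0.70 and −0.34 in cKO 1, 3, 4 and 5, so cKO 3 stood with WT 1 and WT 3. Over all genes the rho was 0.37, 0.39, −0.26 and −0.06 in WT 1, 3, 4 and 5. In cKO 1, 3, 4 and 5 it was −0.31, 0.30, −0.44 and −0.16 over all genes. Within pairs the rho for the rod genes was −0.67, −0.45, −0.47 and −0.25, below 0 in all 4. Over all genes it was −0.45, −0.19, −0.22 and −0.11, so the relation was not particular to rod genes. The single calls were also read from log2 values corrected, library by library, for the length and GC content of transcripts. This alternative was chosen after the data were seen. With this correction and the block 5 of the 36 passed, all lower, against 5.6% of all genes called lower (7.54% in either direction). They were Rpgrip1 (−0.97, adjusted p = 0.00741), Mpp4 (−0.56, 0.00598), Abca4 (−0.46, 0.00889), Grk1 (−0.36, 0.0320) and Samd7 (−0.45, 0.0346), all by limma. Gngt1 no longer passed (0.33, adjusted p = 0.0862). After the correction the rho was −0.34 across the rod genes and −0.02 across all genes. Much of the relation thus stayed in the rod genes, and its part in their calls was not measured.

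**Figure D5:**
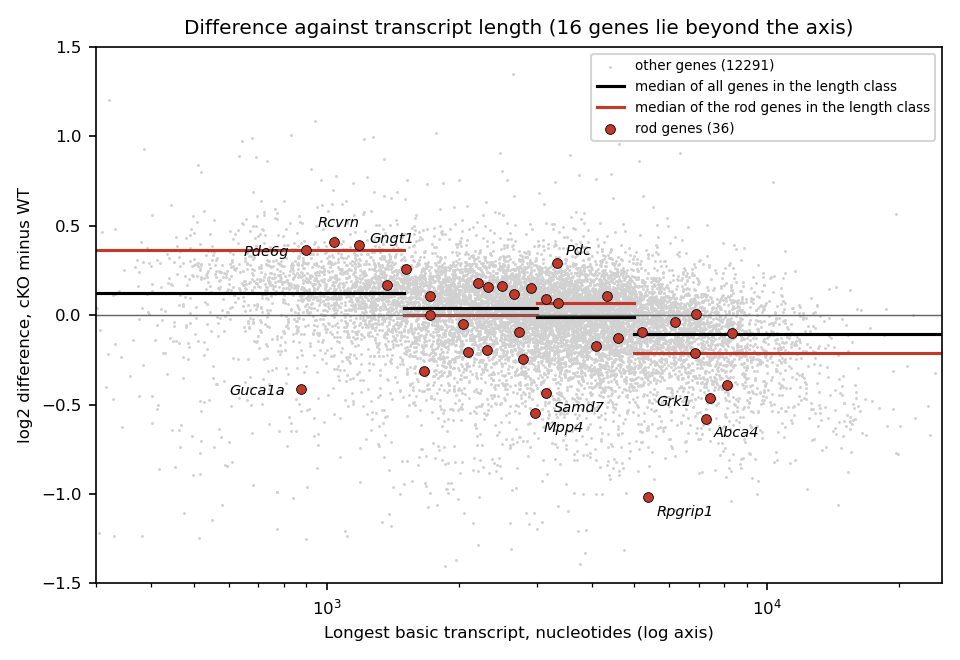
Log2 difference (cKO minus WT) against transcript length on a log axis for the 36 rod genes (red points) and the other genes (grey). Lines give the median in 4 length classes, which runs for the rod genes from 0.37 up to 1500 nucleotides to −0.21 above 5000, and for all genes from 0.13 to −0.11.

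Other photoreceptor genes were read against the 2.99% of all genes called higher and the 7.59% called lower with the block. Of 17 further genes of the cascade, calcium and retinoid handling, 1 rose, 1 fell and 15 did not pass with the block (median difference 0.09). Rd3, which restrains guanylate cyclase, rose from 62.2 ± 8.04 to 80.1 ± 15.1 FPKM (0.35, adjusted p = 0.0286 in limma with the block), and the phosphatase Ppef2 fell from 66.1 ± 12.5 to 48.7 ± 14.5 (−0.46, adjusted p = 0.0144). Of 19 further cilium and outer segment genes, 1 rose, 3 fell and 15 did not pass (median −0.12). Cep290, a gate protein of the connecting cilium, fell from 69.1 ± 21.6 to 38.4 ± 14.2 FPKM (−0.86, adjusted p = 0.00162). Rpgr, the partner of Rpgrip1, fell by 0.67 on the log2 scale (adjusted p = 0.00288). Of 14 synapse genes 0 rose, 3 fell and 11 did not pass (median 0.02), with Cacna1f, the calcium channel of the photoreceptor terminal, at −0.74 (adjusted p = 0.00360) and the active zone protein Bsn at −0.46 (0.00979). Of 9 other transcription factors 0 rose, 2 fell and 7 did not pass (median −0.04). Samd11, the relative of Samd7, fell from 204 ± 61.6 to 121 ± 35.3 FPKM (−0.74, adjusted p = 0.00162), and Casz1 by 0.41 (0.0179). All these p-values are from limma with the block, adjusted over all genes.

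Marker lists of other retinal cells are given with the same background of 2.99% of all genes called higher and 7.59% called lower with the block, and 0% without it. With the block, 6 of 11 bipolar cell markers rose and 0 fell (summed FPKM 2083 to 2592 in WT and 2559 to 3246 in cKO), and 4 of 10 cone markers fell and 1 rose (476 to 572 and 552 to 584). Most of the cone sum was Gnb3, which bipolar cells also use, at 403 ± 46.4 FPKM in WT against 435 ± 13.4 in cKO. Of 8 amacrine and horizontal markers 4 fell, and of 7 ganglion cell markers 3 fell, with none rising in either list. Of the 16 Müller markers 2 fell and 0 rose. Of the 8 pigment epithelium markers only Ttr was in the table, at 3.74 ± 1.78 and 3.86 ± 1.52 FPKM, and none of the 7 microglia markers was. The part of these cells in the differences of the rod genes was not tested.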

How the data were processed

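RNA bound to Müller cell ribosomes was sequenced in 8 libraries (4 WT, 4 cKO), from poly(A)-selected RNA with a directional kit, per the labels' protocols. The authors deposited 1 table of FPKM values, a unit given by its name. STAR, edgeR, GRCm38 and mm10 are listed without version or role, per the submitters' processing notes; the tool that counted reads, whether it used strand, and how genes were filtered are not given in the sources used here. The lowest mean among the deposited genes was 2.0 FPKM, and genes below it were not examined.

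Values were taken as log2(FPKM + 0.5), which understates changes of low genes, and groups were tested in R 4.3.3 by limma 3.58.1 (lmFit, eBayes with a trend, two-sided, Benjamini-Hochberg adjustment over 12339 genes, threshold 0.05). The replicate number was added as a block because, after each group's mean was removed, libraries of equal number correlated at 0.261 to 0.591 across genes and those of unequal number at −0.479 to 0.211. That fit has 3 residual degrees of freedom in place of 6. The fits were checked on simulated data with independent noise for each gene and library around replicate means. That check therefore does not cover deviations shared by many genes of a library, such as the relation to length. Gene positions and transcripts were from GENCODE mouse release 21 on GRCm38. The genes and lists were chosen with earlier results of these data known, so their tests are not independent of those. Levels were given for all members; differences were given with statistics for members past the threshold, the 3 smallest p in each direction and the 4 highest levels, and in the other lists for up to 3 genes with the smallest p, some of which are not reported here. Alternatives were other pseudocounts, scalings, filters, moderation, library weights and leaving out libraries or pairs.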

Additional observations from a re-analysis of the deposited data

Results flagged for a closer look

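In 4 of 80 groups of 4 libraries examined (each rod gene and 4 sums or ratios, in WT and in cKO), 1 library stood apart by Dixon's criterion; chance flags about 1 group in 20. Pde6a was at 116 FPKM in cKO 1, against 87.7 to 90.2 in the other cKO libraries. Nr2e3 was at 200.4 FPKM in WT 4, against 356 to 377 in the other WT libraries. Samd7 was at 35.9 FPKM in cKO 4, against 49.1 to 51.4 in the other cKO libraries. The Müller markers summed to 15981 FPKM in cKO 4, against 11416 to 11693 in the other cKO libraries.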

How the results depend on the processing

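Without the replicate block 0 rod genes passed in limma, and with the replicate block 6 did; leaving out one pair at a time gave 3 to 7. Rpgrip1, Abca4 and Mpp4 passed with the block without any one pair; Grk1, Samd7 and Gngt1 each lost their call without 3 of the 4 pairs, and Gngt1 also under quantile scaling (0.29, adjusted p = 0.0980) and after the length and GC correction. Without pair 3, Rcvrn (adjusted p = 0.0207), Pde6g (0.0228) and Rom1 (0.0470) also passed in limma with the block. Without pair 5, Guca1b (0.0216), Gucy2f (0.0362) and Rp1 (0.0428) did. Of the rod genes whose differences are given with statistics, Gnb1 and Sag changed direction under some alternatives. For the other rod genes, direction was compared here only after the length and GC correction. With that correction Cngb1 (from −0.04 to 0.05) and Gucy2e (from −0.10 to 0.05) changed direction. Gnb1 differed by −0.07 under quantile scaling, with or without the replicate block, and by −0.035 to 0.21 when 1 library was left out. Sag differed by 0.064 with library weights, by −0.11 to 0.13 when 1 library was left out, and by −0.059 to 0.10 with the block when 1 pair was left out. The median difference over the 36 genes ran from −0.16 without WT 4 to 0.05 without WT 1. With 4 libraries a group and no fragment counts, precision rests on the spread between libraries alone.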

Other observations

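Cone counterparts of the rod genes were far less abundant, apart from Gnb3, and they too differed in both directions. Gnb3, the beta subunit of cone transducin, which bipolar cells also use, measured 403 ± 46.4 FPKM in WT against 435 ± 13.4 in cKO (SD, n = 4). The cone genes named here were picked with their values known. These cone values were not corrected for transcript length and GC content. The cone gamma subunit Gngt2 rose from 32.0 ± 5.49 to 45.0 ± 8.91 FPKM (log2 difference 0.48, adjusted p = 0.00662 in limma with the replicate block). Gngt1 rose among the rod genes, but its call was lost without pair 1, 4 or 5 and after the length and GC correction. The small cone phosphodiesterase subunit Pde6h was at 6.66 ± 1.96 and 9.77 ± 2.17 (0.54, adjusted p = 0.0862), and the large catalytic subunit Pde6c fell from 8.43 ± 3.54 to 4.87 ± 2.32 (−0.74, adjusted p = 0.00720). Cone arrestin Arr3 fell by 0.57 on the log2 scale (adjusted p = 0.0267), where the rod arrestin Sag was level. The cone pigment Opn1sw fell from 19.4 ± 4.60 to 12.5 ± 3.05 (−0.61, adjusted p = 0.00440). Whether rod and cone genes differed from each other in their response was not tested.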
